A study of Mus musculus with 12 samples.

Results

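Crystallins are the bulk proteins of the eye lens, and some of them are also made in the retina. The 10 crystallin genes described here are Cryaa, Cryab, Cryba1, Cryba2, Cryba4, Crybb1, Crybb2, Crybb3, Crygs and Crygn, which were taken by symbol from a table of 53707 genes. All 10 were found, and 6 of them had enough counts to be among the 21061 genes tested. The RNA came from retinas of C57Bl/6J mice at 28 days of age, kept as explants in Neurobasal-A medium for 48 hours with either 5 mM or 25 mM glucose. Cornea, iris, sclera and retinal pigment epithelium were removed at dissection, and an explant is a whole retina cut off from its blood supply and optic nerve. All groups were of this strain with no altered allele named, and glucose was the only treatment that differed. Each glucose concentration had 3 biological replicates, each measured as 2 technical replicates, which gave 12 libraries. Technical replicate 1 of every sample belonged to batch 1 and technical replicate 2 to batch 2. The comparison addresses how RNA levels in the cultured retina differ between low and high glucose.

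The alpha-crystallins, Cryaa and Cryab, are small heat shock proteins that hold unfolding proteins in solution. Cryab is made in many tissues, and in the retina it is known from Mueller glia and other cells under stress. The beta-crystallins (Cryba and Crybb genes) and the gamma-crystallins (Cryg genes) share one fold and pack the lens fibre cells, and several have been described in retinal neurons and glia after injury. Lens expression of the family is driven by factors such as Pax6, Prox1 and Maf, the last of which binds a DNA element called the Maf recognition element.

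In these retinas the family was 1 abundant gene, 1 gene at a low level and 8 genes at trace levels. Cryab held between 96.7% and 99.0% of the summed CPM (counts per 1e+06 counts of the library, scaled by TMM factors) of the 10 genes in every library. None of the 6 tested genes passed an FDR of 0.05 between 25 mM and 5 mM glucose. Crybb3 had the largest difference, at a 3.82-fold higher mean level at 5 mM, and it passed the threshold under some settings and not under others.

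The coding sequences show how far the genes of a pair can be told apart in a count table. Cryaa and Cryab, the 2 alpha genes, are compared over 90 coding bases that lie in 1 exon of both, and capitals mark the bases that differ. The stretch is the most alike of those in frame and without a gap in an alignment of the coding sequences. Over that whole alignment, which allows gaps, 353 of 499 aligned bases (70.7%) are identical. The Cryaa stretch lies in exon 3 of transcript Cryaa-206 at chr17:31680986-31681075 (GRCm38, plus strand) and the Cryab stretch in exon 4 of Cryab-205 at chr9:50756292-50756381 (plus strand), and 59 of the 90 bases (65.6%) are identical.
Cryaa: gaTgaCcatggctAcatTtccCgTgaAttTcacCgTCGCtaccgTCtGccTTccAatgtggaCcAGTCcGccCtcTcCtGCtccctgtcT
Cryab: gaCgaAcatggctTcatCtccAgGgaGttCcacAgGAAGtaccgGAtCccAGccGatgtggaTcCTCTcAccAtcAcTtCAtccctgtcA

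The same comparison is shown for Crybb2 and Crybb3, which lie side by side on chromosome 5. The stretch is in exon 4 of Crybb2-201 at chr5:113062073-113062162 and in exon 4 of Crybb3-201 at chr5:113077561-113077650 (both on the minus strand). Of its 90 bases, 67 (74.4%) are identical, against 420 of 610 aligned bases (68.9%) over the whole alignment. The whole-alignment value is below the 71.5% of Crybb1 and Crybb3.
Crybb2: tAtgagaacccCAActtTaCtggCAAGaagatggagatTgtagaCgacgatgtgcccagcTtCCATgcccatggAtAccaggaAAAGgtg
Crybb3: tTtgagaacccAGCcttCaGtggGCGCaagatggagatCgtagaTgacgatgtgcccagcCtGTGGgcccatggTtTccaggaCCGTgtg

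Across all annotated transcripts of the 10 genes, 0 sequences of 31 bases were shared between any of them. Sharing with other genes was found instead. Of the 1503 distinct 31-base sequences of Cryab, 222 occur on the opposite strand of Hspb2, the neighbouring small heat shock gene, and of the 2096 of Cryaa, 215 occur in the antisense gene AC090881.2. Cryab shares 252 of its 1479 exonic bases (17.0%) with Hspb2. The library kit keeps the strand of the RNA, but whether the counting used it is not given in the sources used here. If it did not, these bases could be counted for either gene. The Cryba1 transcripts hold 61 of 1564 such sequences that also occur in the sense direction in other genes, and Crybb3 holds 12 of 2434.

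Promoter sequences were matched for 9 of the 10 genes in a RefSeq table on GRCm38.p6. In the 250 bases before the start site, 8 of the 9 hold the letters TGCTGA or their reverse complement, the half-site of the Maf recognition element, against 16.1% of all 32851 promoters of that length. The TATA box letters TATAAA were found in 3 of the 9 (Cryba1, Crybb1 and Crygs) against 12.4% of all promoters. The heat shock element cores GAANNTTC and TTCNNGAA were found in 0 and 1 (Cryba1) of the 9, against 6.7% and 7.2%, all searched on both strands. The N stands for any base, and a match describes letters, not a bound site. The promoters of 3 genes show the range, with the matched letters in capitals. Crybb3 is the gene with the largest difference between conditions, Cryba4 has the most half-sites and Crybb2 has none.
Crybb3, chr5:113081585-113081834 (minus strand): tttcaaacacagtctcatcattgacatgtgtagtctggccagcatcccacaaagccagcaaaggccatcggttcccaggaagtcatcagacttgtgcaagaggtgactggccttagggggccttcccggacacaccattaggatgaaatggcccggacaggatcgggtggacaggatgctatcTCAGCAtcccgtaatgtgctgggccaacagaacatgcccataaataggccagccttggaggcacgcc
Cryba4, chr5:112252519-112252768 (minus strand): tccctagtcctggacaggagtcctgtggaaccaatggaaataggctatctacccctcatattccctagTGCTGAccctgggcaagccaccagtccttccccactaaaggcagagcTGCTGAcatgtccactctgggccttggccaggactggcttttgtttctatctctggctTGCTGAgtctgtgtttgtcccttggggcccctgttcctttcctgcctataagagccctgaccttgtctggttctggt
Crybb2, chr5:113070118-113070367 (minus strand): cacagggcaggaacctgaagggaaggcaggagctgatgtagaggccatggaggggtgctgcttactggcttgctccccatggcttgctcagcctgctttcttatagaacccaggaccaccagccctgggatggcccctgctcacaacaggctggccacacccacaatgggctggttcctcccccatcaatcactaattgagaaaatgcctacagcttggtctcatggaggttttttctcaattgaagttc

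None of these 3 windows overlaps an annotated gene. The Crybb3 half-site lies 67 to 62 bases before the start, on the reverse strand. The 3 half-sites of Cryba4 start 182, 135 and 77 bases before the start. Crybb2 is the one promoter of the 9 without any of the 4 motifs. The half-site was thus present before Crybb3 and before genes at trace levels such as Cryba4 and Crybb1.

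Each library held from 14815285 to 36692484 estimated counts. A floor of 3 counts corresponded to between 0.082 and 0.202 CPM, depending on the library, and covers counting error only. What a technical replicate was, and whether biological replicates came from separate animals, is not given in the sources used here, so p-values measure the spread between these samples. Because these are bulk samples, fewer cells of a type and less RNA per cell cannot be told apart.

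Cryab (chr9:50751325-50756636, plus strand) had 57950 estimated counts over the 12 libraries. At 5 mM its CPM was 103 and 140 in the technical replicates of replicate 1, 300.2 and 384 in replicate 2, and 188 and 465 in replicate 3. At 25 mM it was 222 and 89.3 in replicate 1, 79.3 and 133 in replicate 2, and 194 and 249.9 in replicate 3. The libraries of the conditions overlapped widely, and replicate 1 at 5 mM lay within the range of the 25 mM libraries. Technical replicates of the same biological replicate differed by up to 2.49-fold (25 mM replicate 1) and 2.48-fold (5 mM replicate 3), more than the 1.62-fold difference between the condition means. The mean over biological replicates was 264 ± 125 CPM at 5 mM and 163 ± 58.4 CPM at 25 mM (SD, n = 3). The log2 fold change was -0.70 (SE 0.41), with an FDR of 0.286 in edgeR's quasi-likelihood test with Benjamini-Hochberg adjustment. An exact two-sided permutation test of the replicate CPM gave p = 0.3, where 3 against 3 cannot go below 0.1.

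Per transcript length, the median level of Cryab over the 12 libraries was 463 TPM (transcripts per 1e+06, from the transcript table). That compares with 657 TPM for Glul, the glutamine synthetase of Mueller glia, and 1558 TPM for the intermediate filament gene Vim. It was higher than the other small heat shock genes, of which Hspb6 stood at 59.5 TPM, Hspb8 at 23.0 TPM and Hspb1 at 16.5 TPM. Cryab thus stood nearer to these glial genes than to its own family, and the next crystallin, Crybb3, stood at 3.37 TPM. The rest of the family lay below 1 TPM, from 0.933 TPM for Cryba2 down to a median of 0 for Crybb1 and Crygn. Among these neighbours, Cryba1 (0.598 TPM), Crygs (0.351 TPM) and Cryaa (0.330 TPM) overlapped in their libraries and were not set in order.

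**Figure D1:**
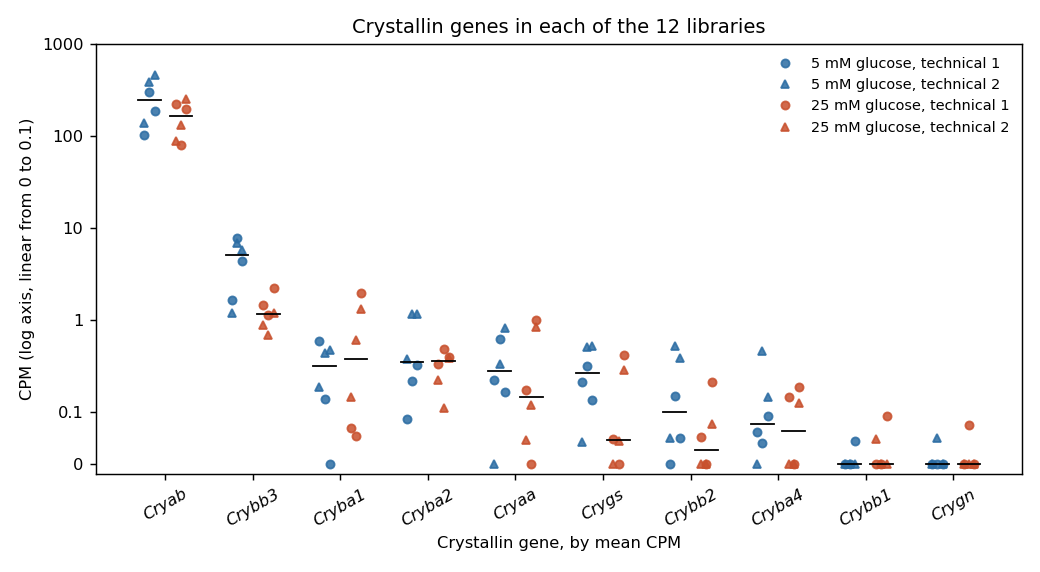
CPM of each crystallin gene (log axis above 0.1, linear below) in the 6 libraries at 5 mM (blue) and the 6 at 25 mM glucose (red), with circles for technical replicate 1, triangles for technical replicate 2 and a black line at the median of 6. Cryab stands above 79 CPM in every library, Crybb3 between 0.686 and 7.78, and the other 8 genes at or below 1.98.

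Crybb3 (chr5:113075839-113081584, minus strand), a beta-crystallin of the lens, was the only other member above 1 CPM in most libraries. At 5 mM its CPM was 1.66 and 1.20 in replicate 1, 7.78 and 6.88 in replicate 2, and 4.36 and 5.82 in replicate 3. At 25 mM it was 1.48 and 0.891 in replicate 1, 1.13 and 0.686 in replicate 2, and 2.25 and 1.21 in replicate 3. Replicates 2 and 3 at 5 mM were above all 6 libraries at 25 mM, while replicate 1 at 5 mM lay among them. Technical replicates differed by 1.13-fold to 1.86-fold, less than the distance between the condition means. The mean was 4.68 ± 3.00 CPM at 5 mM and 1.23 ± 0.44 CPM at 25 mM (SD, n = 3). The log2 fold change was -1.93 (SE 0.57), with an unadjusted p of 0.00919 and an FDR of 0.0857 in edgeR. The exact permutation test gave p = 0.2.

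The call on Crybb3 turned on the setting. DESeq2 gave an adjusted p of 0.00669 for it, in a test that called 16.6% of genes. Without a filter on low counts edgeR gave 0.0312 (5.63% of genes called), and with the 12 libraries as separate samples and a batch term 0.0279 (15.6% of genes called). The last of these counts technical replicates as independent samples and kept 3 of the members. With limma-voom the adjusted p was 0.137, and with edgeR's newer quasi-likelihood method 0.0867. At an FDR under 0.1 in the edgeR test, where 14.4% of genes were called, Crybb3 was called and the other 5 tested members were not. Within batches the log2 fold change of Crybb3 was -1.52 (FDR 0.10) in batch 1 and -2.31 (FDR 0.392) in batch 2. For Cryab it was -0.28 (FDR 0.693) and -1.05 (FDR 0.438).

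Replicate 1 at 5 mM moved both results. Without it, Crybb3 had a log2 fold change of -2.35 and an FDR of 0.0115, and Cryab one of -1.05 and an FDR of 0.0291. In that test 26.6% of all genes were called, so 2 of 6 members is read against a high background. In the other direction, without replicate 2 at 5 mM the FDR of Crybb3 rose to 0.233 and its log2 fold change was -1.44.

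**Figure D2:**
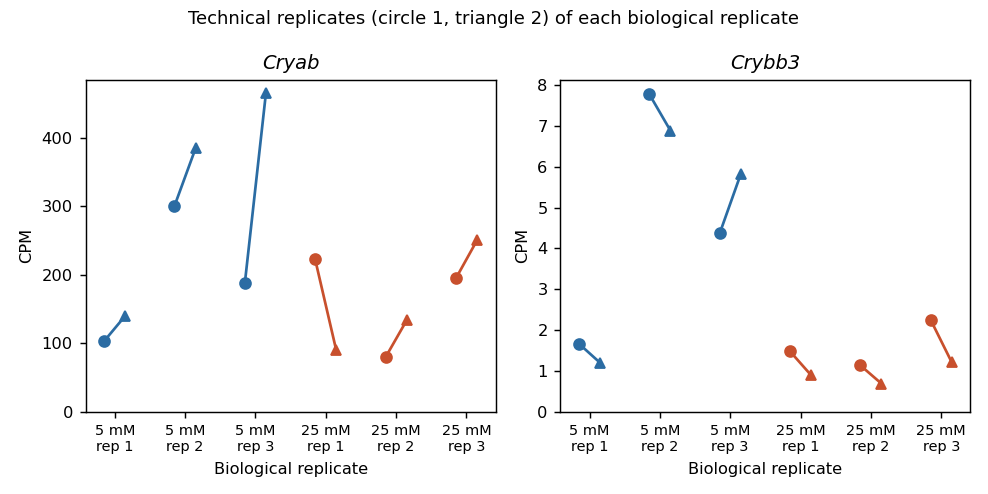
CPM of Cryab and Crybb3 in the technical replicates of each biological replicate (circle 1, triangle 2, joined by a line; blue 5 mM, red 25 mM, axis from 0). Replicate 1 at 5 mM lies with the 25 mM replicates in both genes, and the Cryab pairs are up to 2.49-fold apart.

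The transcript table split the Crybb3 counts between annotated transcripts. Transcript Crybb3-211, which is 1419 bases long and annotated as retaining an intron, held 338.7 counts over the 12 libraries, or 48.9% of those given to the gene. Its share was 72.2%, 26.6% and 44.8% in replicates 1, 2 and 3 at 5 mM and 79.3%, 86.5% and 61.8% at 25 mM. On the CPM scale Crybb3-211 ranged from 0.756 to 2.19 in the 5 mM libraries and was between 0.720 and 1.5 at 25 mM. All other Crybb3 transcripts together ranged from 0.305 to 4.39 CPM at 5 mM, with a median of 2.24, and from 0.153 to 0.80 CPM at 25 mM, with a median of 0.290. The conditions were closer in Crybb3-211 than in the other transcripts, and replicate 1 at 5 mM again stood with the 25 mM replicates. The others include a second transcript annotated as retaining an intron, which held 33.1 counts at 5 mM and 0.2 at 25 mM. The contrast is therefore between Crybb3-211 and the rest, not between intron-retaining and other transcripts. The log2 ratio of the other transcripts to Crybb3-211 was 1.86 lower at 25 mM, and the exact permutation test gave p = 0.2. The comparison was chosen after the data were seen, and the split between transcripts is an estimate. Crybb3 had 808.7 counts by gene and 692.3 summed over its transcripts, so the gene values are not a plain sum. With transcript counts summed per gene, its log2 fold change in edgeR was -1.42 (FDR 0.101), against -1.93 from the gene values. The size of the Crybb3 difference thus depends on which counts are used.

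**Figure D3:**
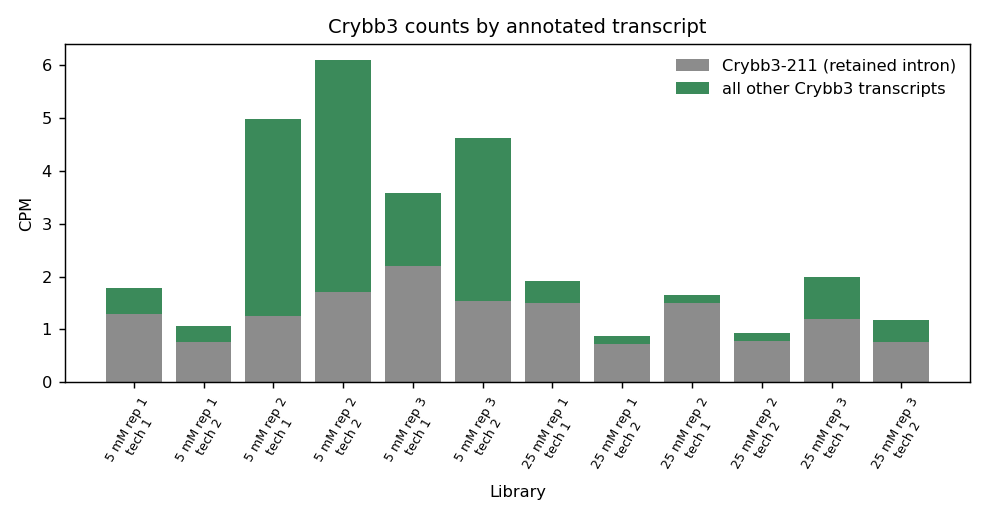
CPM of Crybb3 in each library, as stacked bars of transcript Crybb3-211 (grey) and all other transcripts (green). Crybb3-211 is annotated as retaining an intron, and the green part includes a second transcript with that annotation. The grey part lies between 0.720 and 2.19 in every library, and the green part exceeds 1 only in replicates 2 and 3 at 5 mM.

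For Cryab the spliced transcript Cryab-205 carried 91.2% of the transcript counts. The intron-retaining Cryab-204 held 9.06%, 0.793% and 0.924% in the 3 replicates at 5 mM and 3.77%, 8.83% and 5.31% at 25 mM. Replicate 1 at 5 mM had the highest share and replicates 2 and 3 the lowest, so the conditions overlapped (log2 ratio 1.61 lower at 25 mM, exact permutation p = 0.4).

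The other alpha-crystallin, Cryaa (chr17:31677807-31681733, plus strand), had 101.8 counts in all. Its CPM ranged from 0 to 0.826 at 5 mM (median 0.279) and from 0 to 1.00 at 25 mM (median 0.148). The conditions had the same mean, 0.38 CPM, and the log2 fold change was 0.03 (SE 0.88, FDR 0.987 in edgeR). At 25 mM nearly all of it came from replicate 3, whose libraries held 20.7 and 20.1 counts against at most 3.7 in the other 4.

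Cryba1 (chr11:77718615-77725283, minus strand), which encodes the betaA3/A1-crystallin known from lens and retinal astrocytes, had 139.8 counts. Its CPM ranged from 0 to 0.601 at 5 mM and from 0.0546 to 1.98 at 25 mM. The means were 0.320 ± 0.099 and 0.726 ± 0.814 CPM (SD, n = 3), and the log2 fold change of 1.17 (SE 0.80) had an FDR of 0.353. The 2 libraries of replicate 3 at 25 mM held 40.9 and 32.0 counts, while the remaining 25 mM libraries held 0.7 to 13.8. Without that replicate the log2 fold change of Cryba1 was -0.32 (FDR 0.768) and that of Cryaa -1.88 (FDR 0.161), so the direction of both rested on it.

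Cryba2 (chr1:74889934-74893143, minus strand), another acidic beta-crystallin, had 114.6 counts and was above 0 in all 12 libraries. Its CPM ranged from 0.0874 to 1.17 at 5 mM and from 0.112 to 0.491 at 25 mM, with a log2 fold change of -0.77 (SE 0.52) and an FDR of 0.346. The high values at 5 mM were the second technical replicates of replicates 2 and 3, at 1.16 and 1.17 CPM. In batch 1 alone the 3 libraries at 25 mM were all above the 3 at 5 mM, the opposite direction, in a comparison in which 39.8% of genes did not overlap. In batch 2 alone 0 of the 6 tested members were apart, against 16.3% of genes.

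Crygs (chr16:22805203-22811577, minus strand), the gamma-crystallin of the adult lens, had 59.6 counts. It ranged from 0.0424 to 0.528 CPM at 5 mM and from 0 to 0.420 CPM at 25 mM, where replicate 3 held 8.7 and 6.9 counts and the other libraries at most 1.0. The log2 fold change was -1.04 (SE 0.89, FDR 0.452). Without replicate 3 at 25 mM the log2 fold change was -3.42 (FDR 0.0632) and without replicate 1 at 25 mM it was -0.54 (FDR 0.755), so its size rested on single replicates.

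The 4 members that were not tested had few counts. Crybb2 (chr5:113058258-113070117, minus strand) had 33.1 counts, with 25.7 of them at 5 mM. Cryba4 (chr5:112246493-112252518, minus strand) had 27.8 counts, 17.8 at 5 mM. Crybb1 (chr5:112255815-112269585, plus strand) had 3.9 counts and was at 0 in 9 libraries. Crygn (chr5:24751003-24758008, minus strand) had 2.0 counts, both on the noncoding transcript Crygn-202, while its coding transcript Crygn-201 was at 0 throughout. In most libraries each of the 4 stood at or under about 3 counts, and no fold is read from them.

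The summed level of the trace members, over the 8 genes other than Cryab and Crybb3, was 4.30 and 3.06 CPM in the 2 libraries of replicate 3 at 25 mM and between 0.468 and 0.895 CPM in the other 4 at 25 mM. At 5 mM it ranged from 0.656 to 3.53 CPM, with the high values in the second technical replicates of replicates 2 and 3. In those 2 libraries at 5 mM, Cryba2 led, and in replicate 3 at 25 mM Cryba1 led. The high sums were therefore in 1 biological replicate in both batches at 25 mM, and in batch 2 alone at 5 mM. Single genes departed from the sum, since Cryba2 at 25 mM was highest in the first library of replicate 2 (0.491 CPM) and Cryba1 at 5 mM in the first library of replicate 1 (0.601 CPM).

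**Figure D4:**
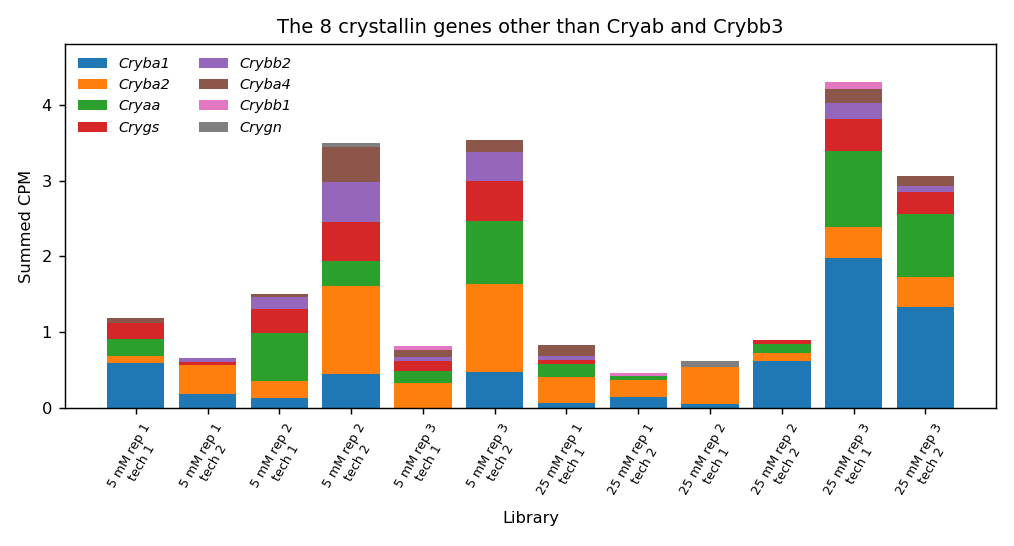
Summed CPM of the 8 crystallin genes other than Cryab and Crybb3 in each library, stacked by gene (axis from 0). Both libraries of replicate 3 at 25 mM (4.30 and 3.06) and the second technical replicates of replicates 2 and 3 at 5 mM (3.49 and 3.53) are the highest.

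Markers of lens were set beside the trace crystallins, since a fragment of lens would carry both. Of 12 lens fibre markers, Lim2, Grifin and Lctl were at 0 in all 12 libraries, and Foxe3 and Pitx3 of the 7 lens epithelium markers were at 0 as well. Mip, the main membrane protein of lens fibres, had 6.0 counts in all, and its highest library was the first of replicate 3 at 25 mM, at 0.239 CPM. The 6 fibre gamma-crystallins Cryga to Crygf, none of them tested, summed to at most 1.03 CPM at 5 mM and 0.692 CPM at 25 mM. Crygb had the most of them with 39.2 counts, then Cryga with 25.4, Crygc with 15.5, Crygd with 8.0, Cryge with 5.0 and Crygf with 2.0. Of the fibre list, 3 genes were tested and only Tdrd7 was called, at a log2 fold change of 0.92 (FDR 0.0425). The share called among all genes was 1.98%. Tdrd7 encodes a granule protein that is not particular to lens and stood at 95.3 CPM at 5 mM. The filament genes Bfsp1 and Bfsp2 had 58.3 and 41.1 counts in all, the connexin gene Gja3 had 4.0, Birc7 had 5.8 and the lens nuclease gene Dnase2b had 7.0. Of the epithelium list, 5 of 7 genes were tested and 0 called, with a median log2 fold change of -0.04. Its Slc7a11, a cystine transporter made by many cells, stood at 801 CPM at 5 mM and 318 CPM at 25 mM (FDR 0.0838), and Mab21l1 at 66.0 and 102 CPM (FDR 0.0939). Npnt (11.3 and 8.05 CPM), Tfap2a (5.13 and 6.15 CPM) and Cdh1 (0.560 and 0.546 CPM) made up the rest. The summed level of the fibre list, which Tdrd7 dominates, ranged from 78.9 to 114 CPM at 5 mM and from 144 to 289 CPM at 25 mM. The part of lens RNA in the trace crystallin counts was not tested.

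Over the 6 tested members, 0 were called at an FDR of 0.05, where 1.98% of all genes were, and 0 at the stricter FDR of 0.01 with a fold change over 2, where 0% were. At an unadjusted p under 0.05, 1 of 6 was called (Crybb3), against 28.7% of all genes. Of the 6, 0 had replicates of the conditions that did not overlap, against 31.8% of all genes. The median log2 fold change of the 6 was -0.73, with 4 of 6 below 0, and it ranged from -1.45 (without replicate 3 at 25 mM) to -0.47 (without replicate 3 at 5 mM) when single replicates were left out. Without replicate 1 at 5 mM it was -1.10. The median of all genes tested was -0.01, with 50.7% below 0 (all replicates). The list was not tested as a set.

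**Figure D5:**
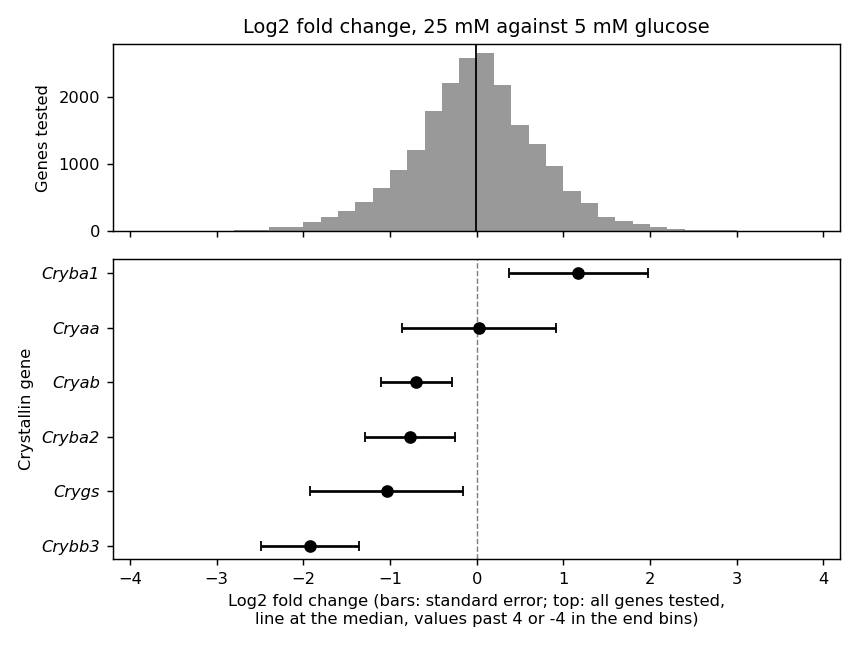
Log2 fold change of the 6 tested crystallin genes, 25 mM against 5 mM glucose, with the standard error as bars (bottom), under the distribution of all 21061 genes tested (top, line at the median of -0.01). Cryba1 (1.17) lies to the right, Cryaa (0.03) at the centre, and Cryab, Cryba2, Crygs and Crybb3 to the left (-0.70 to -1.93).

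Of the 9 other genes listed as small heat shock genes, 6 were tested and 0 called, with a median log2 fold change of -0.84. Among all genes tested, 1.98% were called. Hspb8, whose product works with Bag3 in clearing misfolded proteins, had the lowest FDR, 0.087, at 37.2 CPM at 5 mM and 14.4 CPM at 25 mM. Hspb6 had 36.0 and 38.3 CPM in the same order. Hspb11, which is in the list by its symbol and is not taken as a relative of Cryab, had 19.2 and 22.0 CPM. Hspb2, which overlaps Cryab, had 98.4 counts in all and a log2 fold change of -0.83 (FDR 0.359). Among the 16 larger chaperones and their partners 0 were called, with a median of -0.28. Of these, Hspa8 stood at 3412 and 2428 CPM, Hsp90aa1 at 2188 and 2564 CPM, and Hsp90ab1 at 1457 and 796 CPM at 5 mM and 25 mM.

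Of the transcription factors known for driving crystallin genes in lens, 13 of 16 were tested and 1 was called. Over all genes tested, 1.98% were called. At an unadjusted p under 0.05 in edgeR, 4 of the 13 passed, against 28.7% of all genes. Maf, the lens factor that binds the half-site above, was lower at 25 mM by 1.13 on the log2 scale (FDR 0.0377), from 34.4 CPM to 15.8 CPM. Pax6 (log2 fold change -0.29, FDR 0.308) and Prox1 (-0.03, FDR 0.93) were not called. Hsf4, the lens heat shock factor, was at 0.85 CPM at 5 mM and 0.610 CPM at 25 mM. The enzyme crystallins and crystallin-like genes had 9 of 9 tested and 0 called, with a median of 0.18. The highest of them was Crym, which encodes a thyroid hormone-binding protein, at 278 CPM at 5 mM and 355 CPM at 25 mM (FDR 0.203). Crybg3 was at 81.6 and 58.6 CPM (FDR 0.101) and Cryzl1 at 60.1 and 68.1 CPM (FDR 0.554).

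Markers of the retinal cells were examined beside Cryab. The 10 Mueller glia markers had 0 called and a median log2 fold change of -0.34, and their summed CPM ranged from 2943 to 5033 at 5 mM and from 1769 to 3432 at 25 mM. Vim stood at 1892 CPM at 5 mM and 663 CPM at 25 mM (FDR 0.0555), Glul at 795 and 622 CPM (FDR 0.425) and the glutamate transporter gene Slc1a3 at 419 and 535 CPM (FDR 0.197). Of 15 reactive gliosis genes 13 had a log2 fold change below 0, and the median was -0.38. Only Edn2 of them, an endothelin ligand, was called, higher by 1.99 on the log2 scale (FDR 0.0261). Gfap was at 397 and 314 CPM (FDR 0.333). Astrocyte markers (5 tested, median -0.72), microglia markers (10, median -1.03) and vascular markers (10, median -2.01) had 0 called. The share called over all genes tested was 1.98%. At an unadjusted p under 0.05 in edgeR, 3 astrocyte, 7 microglia and 8 vascular markers passed, against 28.7% of all genes. Of the 13 rod markers 6 were called, all higher at 25 mM, among them Cnga1 (2.12), Pde6b (1.65), Nrl (1.33) and Prph2 (1.28 on the log2 scale), and of 8 cone markers 1 was called, the cone opsin gene Opn1mw. Ganglion, amacrine, bipolar and horizontal cell lists had 0 called, with medians between -0.15 and 0.24. Markers of tissue next to the retina had 0 genes called. The 7 ciliary body and iris markers had a median of -1.19, with a summed CPM of 66.0 to 134 at 5 mM against 22.1 to 76.5 at 25 mM. The pigment epithelium list (7 of 10 tested, median -0.58) and the cornea list (3 of 7, median -0.86, with Krt5 at 0) were the others. At an unadjusted p under 0.05 in edgeR, 7 ciliary body and iris, 2 pigment epithelium and 0 cornea markers passed. The part of these cell types in the Cryab and Crybb3 values was not tested.

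The genes most alike in pattern were taken by Pearson correlation of log2 CPM over the 12 libraries, as a description. These libraries share batch, depth and biological replicates, and no p is given. For Crybb3 they were Rplp0 (r = 0.981), Eif3i (0.971), Clip2 (0.969), Rpl37a (0.968) and Arfgap3 (0.968). Rplp0 and Rpl37a encode ribosomal proteins and Eif3i a translation initiation factor, and none of the 5 was called (FDR 0.0897 to 0.138). For Cryab they were Rrp36 (0.973), Nr2c2ap (0.972), 9330020H09Rik (0.968), Timm10 (0.967) and Mt3 (0.965), a metallothionein of brain. For Cryba1 the closest were Jund (0.875), Gm32742 (0.863), Gm16098 (0.842), the unnamed gene ENSMUSG00000121480 (0.833) and Ly86 (0.817). Of the members themselves, Cryab and Crybb3 correlated at r = 0.77, Cryab and Cryba1 at 0.21, and Cryba1 and Crybb3 at -0.11. The mean of these 3 standardised members was closest to Prdx5 (0.955), Ptgds (0.952), Triobp (0.949), 1110008P14Rik (0.947) and Slc25a38 (0.942).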

How the data were processed

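Retinal explants were measured by stranded total RNA-seq in 12 libraries made from 4 ng of RNA with 13 PCR cycles and read as pairs of 101 bases. The authors deposited estimated counts (expected counts) per gene and per transcript, not normalized, with technical replicates kept apart. The build named in the submitters' processing notes is GRCm38, and the counting tool is not given in the sources used here. Symbols, positions and transcript sequences came from GENCODE M21, which named 48766 of 53707 genes (90.8%).

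Technical replicates were summed and rounded, filtered with filterByExpr, normalized by TMM and tested between conditions with edgeR 4.0.16 (quasi-likelihood, legacy form; R 4.3.3), with Benjamini-Hochberg adjustment over 21061 genes. CPM used TMM factors. TPM was computed from transcript counts and annotated lengths. Transcript ratios used a pseudocount of 0.5. Library totals were 14815285 to 36692484, amplified reads without molecular identifiers are not independent molecules, and the floor of 3 counts covers counting error only. The procedure was tested on simulated data. DESeq2 1.42.0, limma 3.58.1 and the other alternatives are given in the closing section. Named genes were all members, per list up to 4 called genes of largest change or, with none called, up to 3 of highest CPM, every lens gene of interest with counts, and the 5 most alike genes. Other genes were named after their values were seen. The members and the 22 lists were chosen with earlier results of these data known. The results of some listed genes are not reported here.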

Additional observations from a re-analysis of the deposited data

Results flagged for a closer look

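In 5 of 20 groups of 6 libraries, 1 library stood far from the others of its gene and glucose concentration. Chance gives about 1 in 20 for values that vary continuously, but 3 of the 5 groups hold 1 count and otherwise 0, which stands apart by construction, so no excess is read from the number. Cryba4 was at 0.466 CPM (9.0 counts) in the second technical replicate of replicate 2 at 5 mM, against at most 0.149 CPM in the other 5. Crybb2 was at 0.216 CPM (4.5 counts) in the first technical replicate of replicate 3 at 25 mM, against at most 0.0773 CPM. Crybb1 was at 0.0449 CPM in the first technical replicate of replicate 3 at 5 mM, with the other 5 at 0. Crygn was at 0.0509 CPM in the second technical replicate of replicate 2 at 5 mM and at 0.0761 CPM in the first of replicate 2 at 25 mM, with the other 5 of each group at 0. The Crybb1 and Crygn values are 1 count each.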

How the results depend on the processing

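The count of crystallin genes called at an FDR of 0.05, 0 of 6, became 1 (Crybb3) with DESeq2, without a filter on low counts, with 12 libraries and a batch term, and at an FDR under 0.1, and ranged from 0 to 2 when each biological replicate was left out. It stayed 0 with library totals, RLE size factors, limma-voom, the newer edgeR method, each batch alone, a replicate block and summed transcript counts. The number with replicates apart was 1 in batch 1 alone (Cryba2). Over all alternatives the log2 fold change of Crybb3 stayed between -2.35 and -1.42 and that of Cryab between -1.05 and -0.28. Cryaa turned to -0.37 with the replicate block and -0.48 with limma-voom, and ranged from -1.88 to 0.49 with replicates left out. Cryba1 ranged from -0.32 to 1.69 with replicates left out. The causes were not tested. The replicate block left 0 members called, with a log2 fold change of -1.70 for Crybb3 and -0.61 for Cryab. Replicates of the same number did not deviate together (correlations -0.01, -0.45 and 0.29), so the numbers were not taken as pairs. The transcript ratios, added after seeing the data, stayed below 0 with a pseudocount of 1 (-1.61 for Cryab, -1.81 for Crybb3) and with each replicate left out. Depth limits the 8 trace genes, which had 139.8 counts or fewer over 12 libraries.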
